A study of Mustela putorius furo with 10 samples.

Results

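The genes described here encode the proteins of the mitochondrial ribosome, measured in peripheral blood mononuclear cells (PBMC) of ferrets kept at 4 °C (cold) or at 22 °C (control). A gene was taken when its ferret symbol in RefSeq began with MRPL or MRPS and a number, and when at least 1 of its probes lay well above background in the channel of the animal on at least 4 of the 10 arrays. RefSeq holds 76 such symbols. Of these, 59 were matched to a target sequence of the array, and 58 passed the detection rule, namely 38 MRPL genes of the large subunit and 20 MRPS genes of the small subunit. They stand among 26303 features tested in all, which are called all genes below: 9276 genes that carry a symbol, and 17027 target sequences that were not named here and count as 1 each, so that some may belong to the same gene. Every one of the 58 had a probe above background on all 10 arrays, so that no member lay near the limit of 4 by its best probe. Not every probe passed, since MRPL37 kept 1 of 4 probes, MRPS22 2 of 8, MRPL52 6 of 8 and MRPL1 9 of 12. None of the 4 probes of MRPS25 passed on any array. The 17 symbols that were not matched, and are not analysed here, are MRPL9, MRPL12, MRPL15, MRPL20, MRPL21, MRPL23, MRPL33, MRPL36, MRPL41, MRPL54, MRPL58, MRPS2, MRPS5, MRPS6, MRPS18C, MRPS31 and MRPS36. Some of them may be among the unnamed sequences.

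The study asked how PBMC gene expression differs after 1 week in the cold. All animals were male ferrets of 3 months of age from a commercial breeder, with free access to food and water. The control group (n = 6) stayed at 22 °C, and the cold group (n = 4) spent 7 days at 4 °C, each animal in a cage of its own. Only the cold group is described as housed individually, so that temperature and housing cannot be told apart. Each animal had 1 array of 2 colours, on which the green dye Cy3 carried its own PBMC RNA and the red dye Cy5 a reference pool of PBMC RNA mixed with RNA of other tissues, identical on every array. PBMC are a mixture of lymphocytes, monocytes and some other blood cells, and in such a mixture fewer cells of a type and less RNA per cell cannot be told apart.

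Mitochondria carry their own small genome, and the few proteins it encodes, all of them core subunits of the respiratory chain and of ATP synthase, are made inside the organelle by a ribosome distinct from that of the cytosol. The RNA of this ribosome comes from the mitochondrial genome, but all of its proteins are encoded in the nucleus, made in the cytosol and imported. Part of them descend from proteins of the bacterial ribosome, and others have no bacterial counterpart and were added during the evolution of mitochondria.

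The values below are log2 ratios of Cy3 to Cy5, normalised within each array by loess, a smooth correction that depends on the brightness of the spot, and averaged over the probes of a gene. Because of that correction a ratio of 0 stands for the typical ratio of spots of like brightness on the same array, not for equal signal in both channels. The log2 change is the mean of the 4 cold arrays less the mean of the 6 control arrays. Between 50.4 and 63.5% of the spots of an array were well above background in Cy3. In the reference channel the share lay between 27.03 and 54.86% on control and between 40.53 and 64.03% on cold arrays. The median background-corrected log2 Cy5 intensity of all genes lay between 6.34 and 7.55 on control arrays, and was 8.76, 6.65, 7.99 and 7.44 on cold 1 to cold 4. No spot of a probe that was used for the members was saturated in Cy3. The Cy5 signal was above background for the majority of the probes on all 10 arrays in 47 members, and on fewer arrays in 11, the lowest being MRPL37 with 3 arrays.

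After loess, the mitochondrial ribosomal protein genes differed little between cold and control PBMC. The mean in cold was lower for 37 of the 58 genes and higher for 21, with log2 changes between -0.32 (MRPL42) and 0.32 (MRPS22). The change was smaller than 0.1 in size for 26 genes and smaller than 0.2 for 48. The median log2 change was -0.05, against -0.01 for all genes tested, of which 52% had a lower mean in cold. Relative to the median of all genes, the median of the members lay 0.04 lower, but it lay 0.03 higher in the Cy3 channel alone and 0.01 higher with the intensities processed by the scanner software. It lay much lower, by 0.40 and 0.37, with each array centred on its median and in the deposited values, where 57 and 50 of the 58 members had a lower mean in cold.

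No member, and none of the 26303 features tested (0%), passed an adjusted p of 0.05 in limma after Benjamini-Hochberg correction. At the unadjusted threshold of 0.01 that the methods of the study use, limma called 1 of the 58 members, MRPL32, or 1.72%, while 8.64% of all genes were called, 3.43% as lower and 5.21% as higher in cold. At an unadjusted p of 0.05, limma called 5 members, all lower in cold (MRPL32, MRPL55, MRPL19, MRPL42 and MRPS9). This is 8.62% of the members against 24.7% of all genes in either direction, where 3286 of the 26303 were lower in cold. The cold and control values of 1 member did not overlap (MRPL32, with cold below), against 5.22% of all genes, 2.15% with cold below and 3.07% with cold above. Among the 9276 genes that carry a symbol these shares were 8.57% for an unadjusted p under 0.01, 25.6% for one under 0.05 and 5.45% for no overlap. By each of these counts the share among the members lay below that of all genes. Of the calls over all genes at 0.01, 39.7% were lower in cold, a split that other scalings moved to 57.5% (processed intensities), 81.5% (ratios centred on the median of the array) and 53.8% (the deposited value table).

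The standard error of the log2 change had a median of 0.11 over the members and 0.12 over all genes, and the median spread between arrays of a group was 0.17 (SD) and 0.19, respectively. The 95% interval of the change, as limma gives it, included 0 for 53 members. For 54 members the whole interval lay within a 1.5-fold change in either direction, which is 0.58 on the log2 scale. It reached further for MRPL42, MRPS22, MRPL57 and MRPL17, the last 2 chosen here after their values were seen. These intervals hold for the loess ratios and cover the spread between arrays, not the choice of normalisation. With array medians in place of loess, the change itself was larger than 1.5-fold for 42 members (72.4%, against 41.3% of all genes) and reached -1.31 on the log2 scale, and in the deposited table it was so for 7 (12.1% against 21.9%). The median size of the change was 0.12 for the members and 0.15 for all genes.

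**Figure D1:**
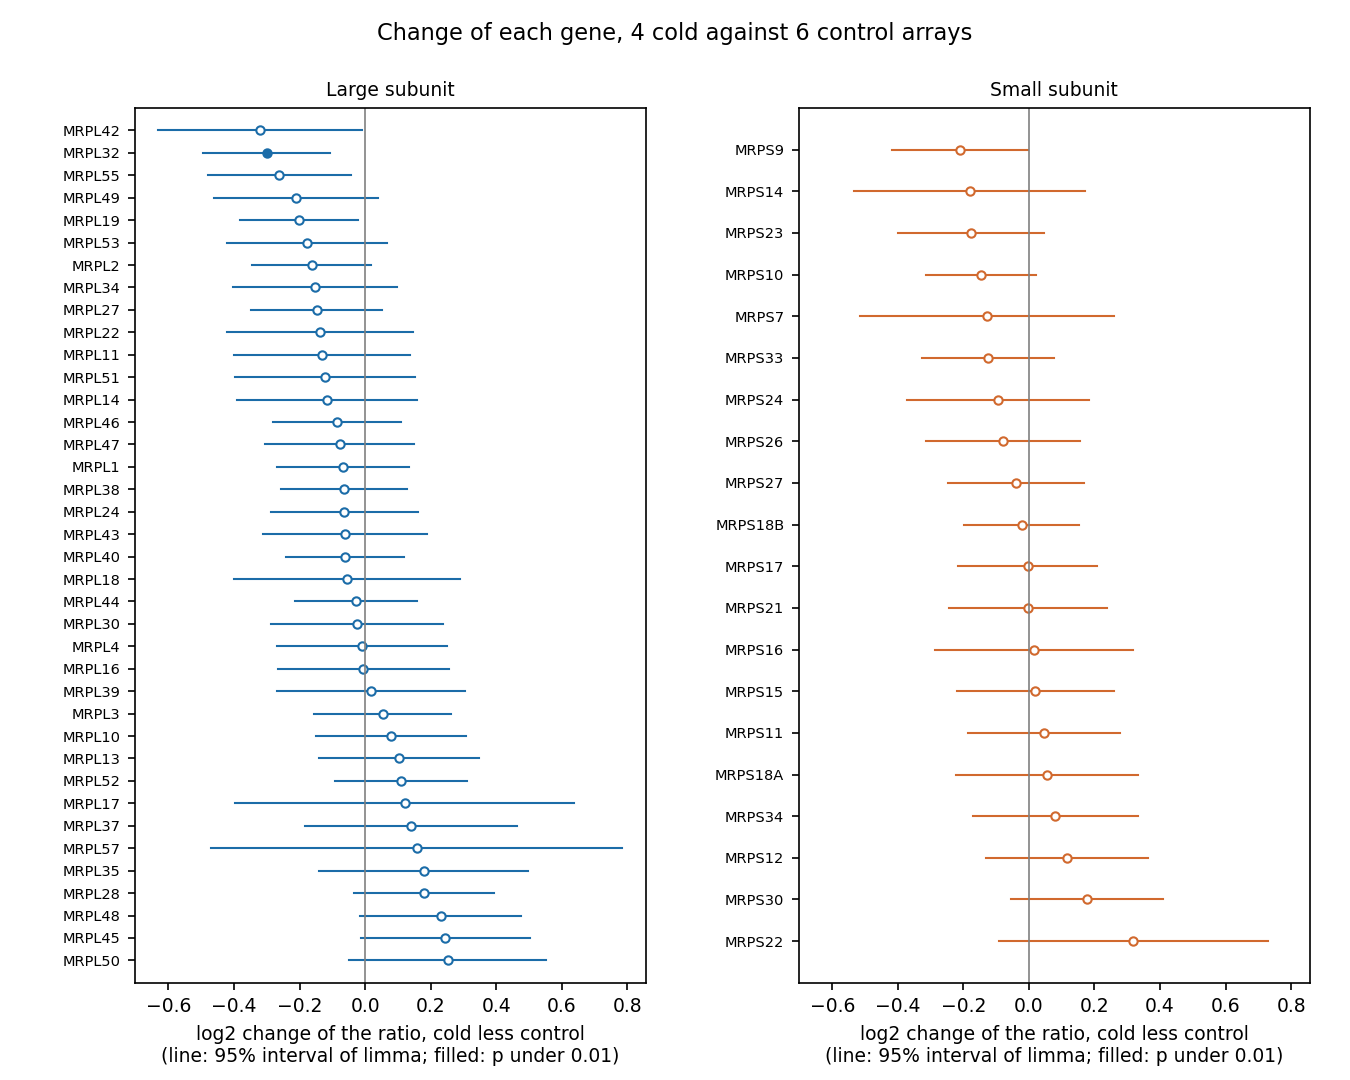
Log2 change of the ratio to the pool (x axis, cold less control) for the 38 large subunit and the 20 small subunit genes (y axis), each with the 95% interval of limma over 4 cold and 6 control arrays; a filled point has an unadjusted p under 0.01. MRPL32 is the only filled point, and the intervals of 53 of the 58 genes include 0.

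Among the large subunit genes, MRPL32 stood lowest by its test. It encodes a protein of bacterial descent whose cleavage by an inner membrane protease is a step in the maturation of the ribosome. Its log2 ratio was 0.04, -0.16, -0.04, -0.28, -0.28 and -0.14 on control 1 to control 6, and -0.42, -0.34, -0.59 and -0.43 on cold 1 to cold 4. The groups were separate, with all cold arrays on the low side, but the gap was smaller than the range of either group. Control averaged -0.14 ± 0.13 (SD, n = 6) and cold -0.44 ± 0.11 (SD, n = 4), which is a difference of -0.30 with a standard error of 0.09. The limma p was 0.00576 before and 0.0994 after adjustment over all genes, and the exact permutation test over the 210 splits of the arrays gave a two-sided p of 0.00952. The smallest p this test allows is 0.00476. All 4 probes of the gene were lower in cold, by 0.18 to 0.49. In the Cy3 channel alone, which uses no reference, the change of MRPL32 was -0.03 and did not pass a p of 0.05 by limma, and the background-corrected Cy5 intensity of its probes was higher in cold by 1.82 on the log2 scale, against a median of 0.99 over all genes. The part of the reference channel in the change of MRPL32 was not tested. Across 22 alternatives it had a lower mean in cold in all 22 and a p under 0.01 in 9, and its adjusted p ranged from 0.0617 to 0.847. The p rose above 0.01 when any one of control 1, control 2, control 3, control 6, cold 1, cold 3 or cold 4 was left out, with changes between -0.34 and -0.25 over all 10 such fits.

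The other large subunit genes with the lowest changes were MRPL42, whose change was larger than that of MRPL32, and MRPL55, MRPL49 and MRPL19. MRPL42, which has no bacterial counterpart, had ratios of 0.30, -0.23, -0.09, -0.11, -0.31 and 0.18 in control and of -0.49, -0.03, -0.54 and -0.39 in cold. Cold 2 lay within the control range and the other cold arrays below it. The change was -0.32 (SE 0.14; limma adjusted p = 0.191; exact permutation test, two-sided p = 0.0667), and without cold 2 it was -0.43 and passed an unadjusted p of 0.01 by limma. MRPL55 ranged from -0.49 to -0.08 in control and from -0.68 to -0.45 in cold, a change of -0.26 (SE 0.10; limma adjusted p = 0.148). MRPL19, a protein of bacterial descent, ranged from -0.16 to 0.05 in control and from -0.38 to -0.10 in cold (change -0.20, SE 0.08, limma adjusted p = 0.167). The groups overlapped for MRPL55, MRPL19 and MRPL49, the last with a change of -0.21 (SE 0.11). All 4 probes of each of these genes were lower in cold. The majority of the probes of MRPL19 lay above background in Cy5 on 5 of the 10 arrays.

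The large subunit genes with the highest changes were MRPL50, MRPL45, MRPL48, MRPL28 and MRPL35, and none of them passed a p of 0.05. MRPL45 encodes the protein at the exit of the peptide tunnel that anchors the ribosome to the inner membrane. Its ratios were -0.18, 0.15, -0.58, -0.28, -0.21 and -0.25 in control and 0.05, 0.03, 0.01 and -0.00481 in cold. The cold arrays lay above all control arrays but control 2, and they spread far less (SD 0.02) than the control arrays (SD 0.23). The change was 0.25 (SE 0.12; limma adjusted p = 0.221; exact permutation test, two-sided p = 0.0524), and without control 2 it was 0.32 and passed an unadjusted p of 0.01 by limma, as 5.72% of all genes did. One of the 4 probes of MRPL45 read -2.23 on control 3, and the 4 probes gave changes from 0.05 to 0.57. MRPL48 had a change of 0.23 (SE 0.11), MRPL50 of 0.25 (SE 0.14), MRPL28 of 0.18 (SE 0.10) and MRPL35 of 0.18 (SE 0.15), with all probes of each gene higher in cold and overlapping groups. The Cy5 signal was above background on 8 arrays for MRPL50 and on 9 for MRPL28. For MRPL35 the higher mean came from cold 2, at 0.37, since the other cold arrays lay at -0.37, -0.28 and -0.28, within the control range of -0.53 to -0.08.

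The large subunit genes that varied most between animals were MRPL57 and MRPL17, with an SD within groups of 0.51 and 0.42. The median of this SD over all members was 0.17, itself larger than the median size of the change, 0.12. MRPL57, a small protein without bacterial counterpart, was at 1.25 on cold 4 and at -0.55 on control 6, while the remaining 8 arrays lay between -0.35 and 0.42. All 8 of its probes, from 2 target sequences, were highest on cold 4, at 0.97 to 1.66. Its standard error was 0.29, the largest of all members. MRPL17 was lowest on control 6 (-0.61) and cold 4 (-0.59), with the other arrays between -0.14 and 0.49. The 95% interval of the change reached from -0.47 to 0.79 for MRPL57 and from -0.40 to 0.64 for MRPL17.

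By the normalised ratio, the lowest large subunit genes in control were MRPL51 (-0.53 ± 0.13, SD, n = 6), MRPL27 (-0.36 ± 0.08) and MRPL11 (-0.34 ± 0.15), and the highest were MRPL48 (0.21 ± 0.13), MRPL2 (0.16 ± 0.07) and MRPL53 (0.15 ± 0.14). MRPL2 and MRPL27 descend from bacterial proteins at or near the site where peptide bonds form, and MRPL11 from the one at the base of the stalk where translation factors bind. Their changes were -0.16 (MRPL2), -0.15 (MRPL27) and -0.13 (MRPL11), and that of MRPL53 was -0.18, all with limma p above 0.05. In total, 37 of the 58 members had a mean ratio below 0 in control, 22 of 38 large and 15 of 20 small subunit genes, that is, below the typical ratio of spots of like brightness. Among all genes this share was 45.6%. The ratio of MRPL2 rests on a dim reference, since the majority of its probes lay above background in Cy5 on 4 of 10 arrays only.

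Among the small subunit genes, the lowest change was that of MRPS9, whose bacterial counterpart touches the transfer RNA that holds the growing chain. Its ratios were -0.08, -0.09, -0.37, 0.06, -0.26 and -0.03 in control and -0.30, -0.25, -0.37 and -0.42 in cold. Cold 4 lay below the control range, and the other cold arrays at its low end, near control 3 and control 5. The change was -0.21 (SE 0.09; limma p = 0.0465 before and 0.196 after adjustment; exact permutation test, two-sided p = 0.0571), and all 4 probes were lower in cold. MRPS14, MRPS23, MRPS10 and MRPS7 followed with changes of -0.18 (SE 0.16), -0.18 (SE 0.10), -0.15 (SE 0.08) and -0.13 (SE 0.18), and the groups overlapped for each. For MRPS23 the Cy5 signal of the majority of its probes was above background on 6 of the 10 arrays. MRPS14 and MRPS7, both in the head of the small subunit, spread widely in cold, MRPS7 from -0.68 to 0.18 and MRPS14 from -1.05 to -0.25, with cold 2 the highest array for both.

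The highest change in the small subunit was that of MRPS22, a protein without bacterial counterpart in which inherited variants cause mitochondrial disease. Its ratios were 0.09, 0.26, 0.32, 0.38, 0.06 and 0.33 in control and 0.18, 1.10, 0.86 and 0.09 in cold. Cold 2 and cold 3 lay far above the control range and cold 1 and cold 4 within it. The change was 0.32 (SE 0.19; limma adjusted p = 0.309; exact permutation test, two-sided p = 0.176). It rested on 2 of the 8 probes of MRPS22, 1 for each of 2 target sequences, since the others did not pass the detection rule. In the Cy3 channel alone it was 0.41, and MRPS22 was the only member with an unadjusted limma p under 0.01 there, where 9.84% of all genes were. None of the members passed an adjusted p of 0.05 in Cy3 alone, where 2.82% of all genes did, while 4 members had an unadjusted p under 0.05, against 24.8% of all genes. The groups of MRPL32 overlapped in Cy3 alone. There 2 other members did not overlap, MRPL4 and MRPS17, both with cold above, which is 3.45% against 7.03% of all genes and 3.57% with cold above. Their changes in Cy3 were 0.19 (SE 0.09; limma adjusted p = 0.221) and 0.22 (SE 0.08; limma adjusted p = 0.13), and both genes were chosen after their values were seen. MRPS30 followed with a change of 0.18 (SE 0.11), MRPS12 with 0.12 (SE 0.11), MRPS34 with 0.08 (SE 0.11) and MRPS18A with 0.06 (SE 0.13), none under a p of 0.05. MRPS12 belongs to the decoding centre. MRPS18A and MRPS18B are both related to a single bacterial protein, and the change of MRPS18B was -0.02 (SE 0.08). The lowest ratios in control were those of MRPS14 (-0.57 ± 0.22, SD, n = 6), MRPS16 (-0.46 ± 0.19) and MRPS21 (-0.36 ± 0.13), and the highest those of MRPS30 (0.26 ± 0.11), MRPS22 (0.24 ± 0.13) and MRPS10 (0.16 ± 0.09). MRPS16 and MRPS21 had changes of 0.01 (SE 0.14) and -0.00297 (SE 0.11).

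**Figure D2:**
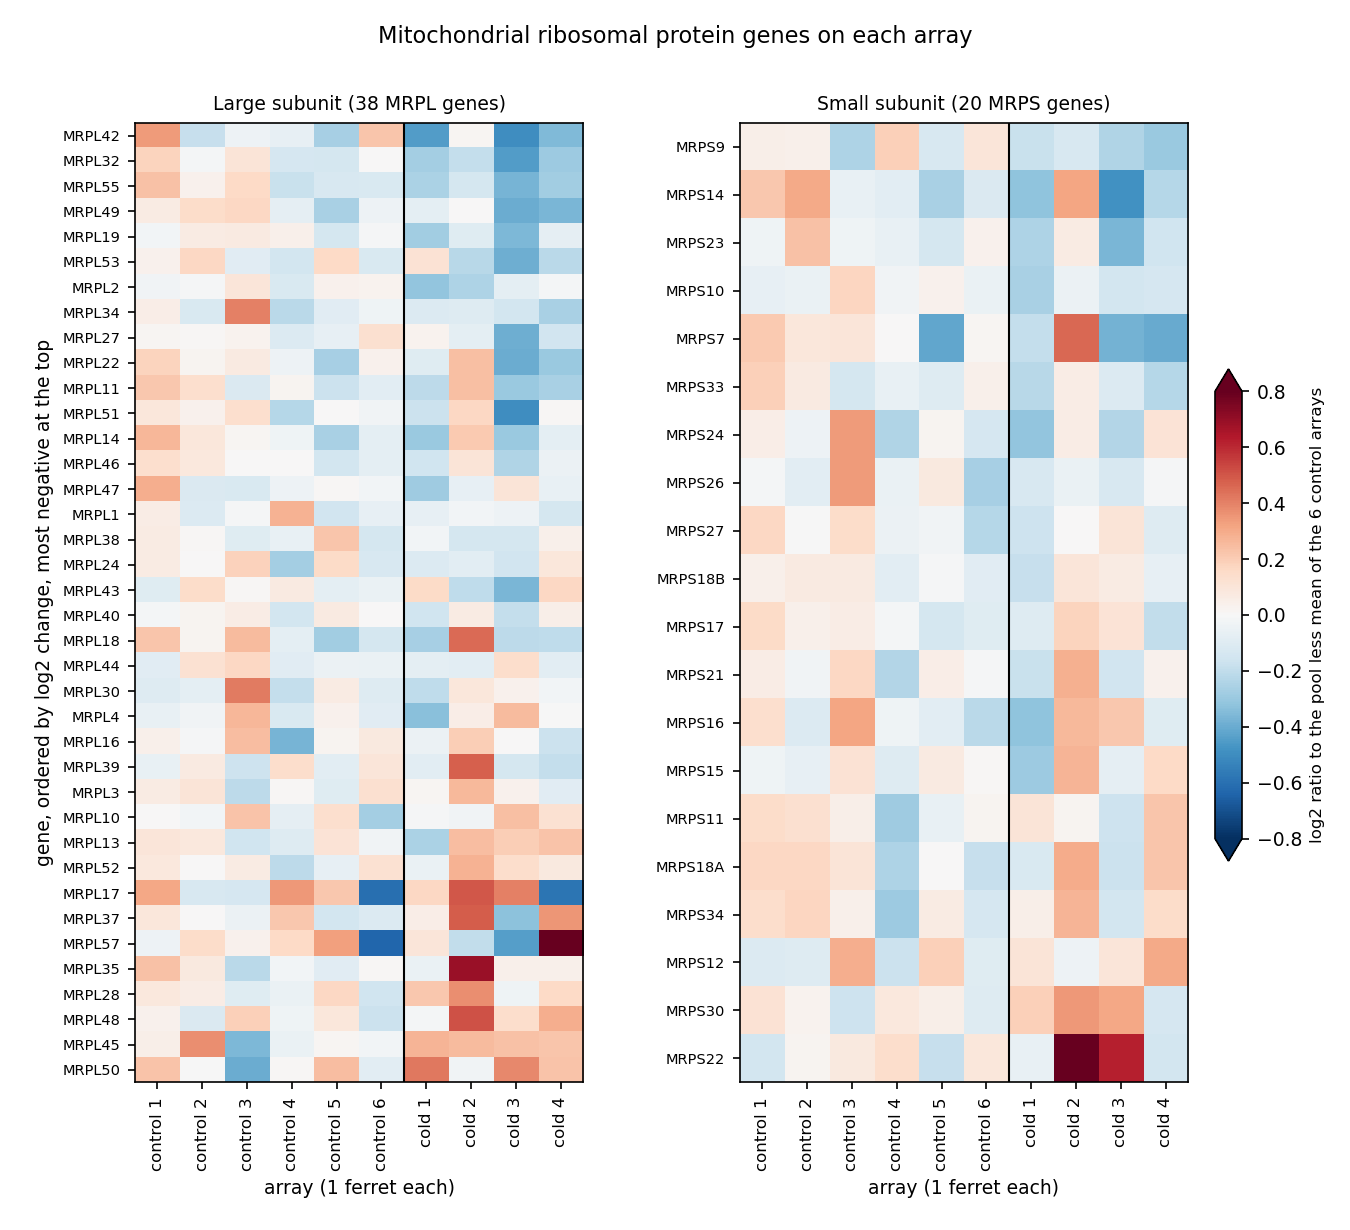
Log2 ratio of each gene on each array less its mean over the 6 control arrays (colour, from blue for lower to red for higher, with the scale ending at 0.8 in size), with large subunit genes on the left and small subunit genes on the right, and control arrays left of the black line in each panel. The column of cold 2 is mostly red and those of cold 1 and cold 3 mostly blue, and MRPL32 is the only row in which all 4 cold arrays lie below all 6 control arrays.

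The difference between the subunits was small. The mean in cold was lower for 25 of 38 large and 12 of 20 small subunit genes, and the median log2 changes were -0.06 and -0.01, a difference of -0.05. Its sign turned in the Cy3 channel alone (0.00569), with array medians in place of loess (0.0155), in the deposited value table (0.0233), with array weights (0.00164), with the replicate number as a block (0.00612) and without cold 3 (0.0106). With MRPS18A and MRPS30 counted in the large subunit, where structures of the mammalian ribosome place them despite their names, the medians were -0.06 for 40 large and -0.03 for 18 small subunit genes.

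On each array, the mean log2 ratio of the large subunit genes was 0.04, -0.02, -0.02, -0.10, -0.08 and -0.12 on control 1 to control 6 and -0.14, 0.05, -0.17 and -0.08 on cold 1 to cold 4. That of the small subunit genes was -0.04, -0.07, -0.03, -0.20, -0.16 and -0.19 in control and -0.26, 0.07, -0.18 and -0.16 in cold. The cold arrays thus spanned more than the whole control range in both subunits, with cold 2 above every control array. Large subunit genes lay above small subunit genes on 9 of the 10 arrays, and cold 2 was the exception.

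**Figure D3:**
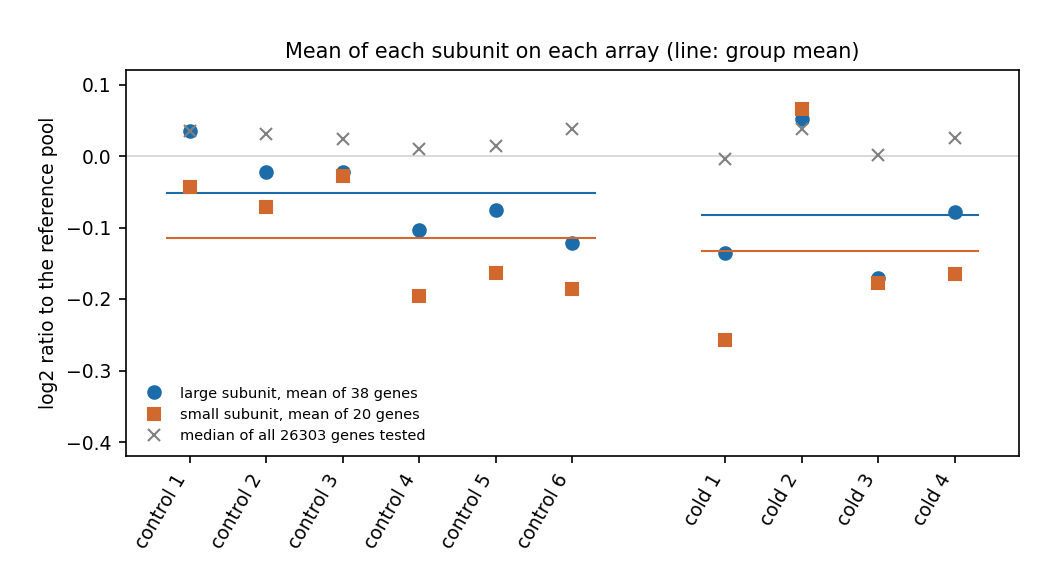
Mean log2 ratio to the reference pool (y axis) of the 38 large subunit genes (blue circles) and the 20 small subunit genes (orange squares) on each array (x axis), with the median of all 26303 genes tested as grey crosses; lines are group means. Cold 2 lies highest of all arrays for both subunits, and the lowest array is cold 3 for the large and cold 1 for the small subunit, while the median of all genes stays within 0.04 of 0.

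The difference between cold 2 and the other cold animals ran through both subunits. Of the 4 cold arrays, cold 2 had the highest value for 39 of the 58 members, 24 large and 15 small subunit genes, where 31.1% of all genes had theirs on that array. Over all 10 arrays, 23 members were highest on cold 2 and 0 were lowest there, while 16 were lowest on cold 3 and 11 on cold 1. The same counts over all genes were not made for the 10 arrays. Cold 2 was also the cold array with the dimmest reference channel, whose median log2 Cy5 intensity over the members was 7.62, against 10.6, 9.56 and 8.82 on cold 1, cold 3 and cold 4 and 7.00 to 9.05 in control. The part of the Cy5 signal in this order was not tested. The mean ratio of the 46 measured genes of oxidative phosphorylation was likewise highest on cold 2, at -0.06 against -0.48, -0.40 and -0.38 on cold 1, cold 3 and cold 4, and -0.45 to -0.22 in control. Without cold 2, 43 members had a lower mean in cold and 15 a higher one, and limma called MRPL32 and MRPL42 at an unadjusted p of 0.01, or 3.45% against 12.9% of all genes. Without cold 1, 29 members were lower and 29 higher, and limma called none at 0.01, against 6.35% of all genes.

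The members were also grouped by origin. Of 34 members with a bacterial counterpart, 23 had a lower mean in cold and the median change was -0.04 on the log2 scale, and of 23 members without one, 13 were lower, also with a median of -0.04. MRPL55 was not classed. Relative to all genes, the medians of the groups with and without a counterpart were 0.03 and 0.03 in the Cy3 channel alone, -0.00342 and 0.03 with processed intensities, -0.40 and -0.34 with array medians, -0.41 and -0.32 in the deposited table, and -0.05 and -0.02 without cold 2.

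The probes of a gene gave a check within the arrays. The members were read by 298 probes for 78 target sequences. Of the 42 members with exactly 4 probes, 21 had all of them on 1 side, or 50% against 61.8% of all genes with 4 probes. Taken over all members, 14 had every probe lower, 10 every probe higher, 33 were mixed, and 1 (MRPL37) had a single probe left.

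Proteins that build and run the mitochondrial ribosome were described beside its subunits. Of 55 listed factors of assembly, RNA modification and translation, 31 were measured, 23 with a lower and 8 with a higher mean in cold, and their median log2 change was -0.07. Relative to all genes the median was lower in each of the 6 scalings, by 0.06 to 0.17. At an unadjusted p of 0.01 limma called 3, all lower in cold, which is 9.68% against 8.64% of all genes in either direction and 3.43% as lower. The cold and control values of the same 3 did not overlap, again 9.68%, against 5.22% of all genes and 2.15% with cold below. They were NGRN, which protects the RNA of the large subunit, MRM3, which methylates it, and NSUN4. The last methylates the RNA of the small subunit and takes part in joining the subunits. With processed intensities the list had 2 calls (6.45% against 5.72% of all genes), and in the deposited table also 2 (6.45% against 4.16%). With array medians it had 1 (3.23% against 4.42%). It kept 3 in Cy3 alone (9.68% against 9.84%) and without background subtraction (9.68% against 8.19%).

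NGRN had log2 ratios of 0.07, 0.18, 0.11, -0.03, -0.04 and -0.05 in control and of -0.45, -0.50, -0.71 and -0.40 in cold. The groups were separated by more than the range of the control arrays. The change was -0.56 (SE 0.08; limma adjusted p = 0.0576; exact permutation test, two-sided p = 0.00476, the smallest possible), and it was -0.55 in the Cy3 channel alone. NSUN4 had ratios of 0.03, 0.02, 0.29, -0.13, -0.12 and 0.15 in control and of -0.37, -0.33, -0.49 and -0.25 in cold, a change of -0.40 (SE 0.10; limma adjusted p = 0.0736) that was -0.42 in Cy3 alone. MRM3 changed by -0.36 (SE 0.09; limma adjusted p = 0.0747), but by -0.13 in Cy3 alone, which did not pass a p of 0.05 there. Cold 2, which stood high for the ribosomal proteins, was the highest cold array for MRM3 (-0.20) but not for NGRN and NSUN4. The mean of the whole list was highest on cold 2 as well, at -0.06, against -0.16, -0.17 and -0.09 on cold 1, cold 3 and cold 4.

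Of the factors that run translation, GUF1, a GTPase related to a bacterial elongation factor, and GTPBP6, which splits ribosomes for recycling, both had a log2 change of -0.25, with limma adjusted p of 0.143 and 0.153. The log2 change was -0.07 for MTIF2 (initiation), 0.00816 for GFM1 and -0.06 for TSFM (elongation), -0.05 for MTRF1 (release) and 0.09 for MRRF (recycling), all with limma p above 0.05, and these 7 factors were chosen after their values were seen. LRPPRC, which stabilises mitochondrial messenger RNA, and MTIF3 were not matched to a symbol among the features tested and are not analysed here. Of 4 measured subunits whose symbols do not begin with MRP, 3 had a lower mean in cold, as 52% of all genes did. None of the 4 had a limma p under 0.01, against 8.64% of all genes. The lowest of them was PTCD3, a small subunit protein, with a change of -0.17 (SE 0.07; limma adjusted p = 0.181; exact permutation test, two-sided p = 0.0238), and it too was chosen after its value was seen.

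Of 16 listed factors of mitochondrial transcription and RNA processing, 11 were measured, 8 of them with a lower mean in cold. Their median log2 change was -0.11 and was lower than that of all genes in each of the 6 scalings. None had a limma p under 0.01, and 3 (27.3%) had one under 0.05, all lower in cold. Of all 26303 genes, 24.7% had one under 0.05 in either direction, and 3286 were lower in cold. With processed intensities and with array medians 2 (18.2%) had a limma p under 0.01, both lower in cold. The shares of all genes in either direction were 5.72 and 4.42% there. TFAM, which packages mitochondrial DNA and starts its transcription, had ratios of 0.17, 0.02, -0.04, 0.01, 0.13 and 0.18 in control and of -0.09, -0.11, -0.09 and -0.38 in cold. The groups did not overlap, and the gap between control 3 and cold 1 was narrow. The change was -0.25 (SE 0.09; limma p = 0.0153 before and 0.128 after adjustment; exact permutation test, two-sided p = 0.00476).

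The ribosomal proteins of the cytosol had a median further below 0 than those of the mitochondrion. Of 54 measured, 43 had a lower mean in cold, and the median log2 change was -0.12. A limma p under 0.01 was found for 3, all lower, or 5.56% against 8.64% of all genes in either direction and 3.43% as lower. The number of calls in this list moved with the scaling, all of them being lower in cold. It was 6 with processed intensities, or 11.1% against 5.72% of all genes in either direction. Without background subtraction it was 8, or 14.8% against 8.19%, and with array medians 1, or 1.85% against 4.42%, again in either direction. Relative to all genes their median was lower in each of the 6 scalings. Of 46 nuclear genes of oxidative phosphorylation, which work beside the proteins that the mitochondrial ribosome makes, 18 were lower and 28 higher, with a median of 0.03. By limma none (0%) had a p under 0.01, against 8.64% of all genes, and 1 (2.17%) had one under 0.05, against 24.7%. Their median turned below that of all genes with array medians, in the deposited table and without cold 2. This list was taken by symbol and holds NDUF, SDH and ATP5 genes only, most of them subunits of complexes I and II and of ATP synthase. It includes NDUFA4, now placed in cytochrome c oxidase, and ATP5IF1, the inhibitor of ATP synthase. The differences between these lists and the members were not tested.

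**Figure D4:**
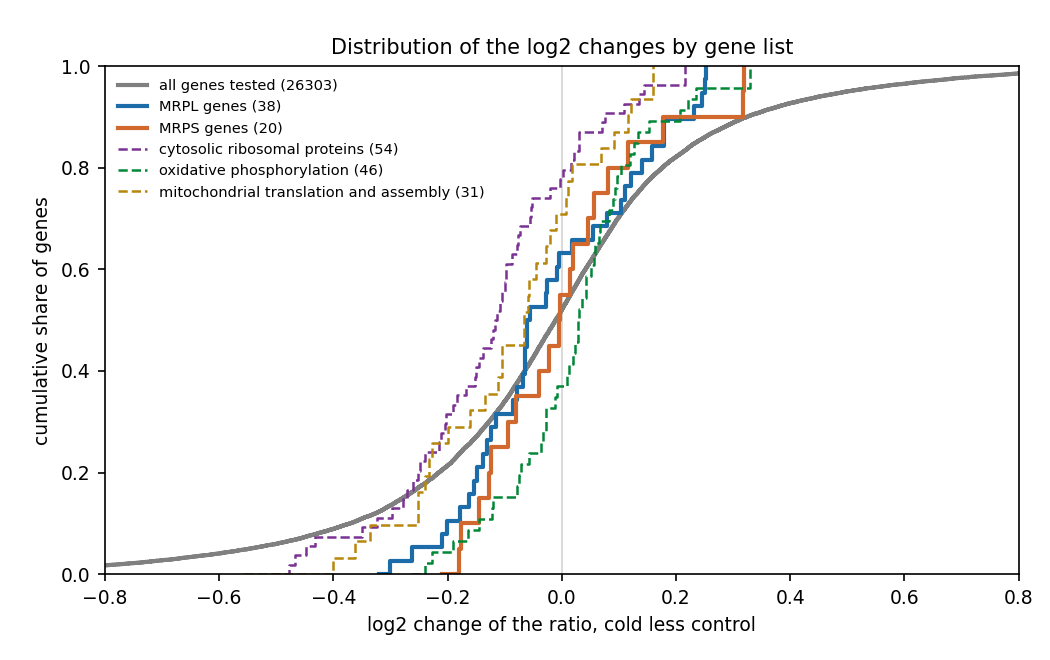
Cumulative share of genes (y axis) by log2 change, cold less control (x axis, shown from -0.8 to 0.8), for all 26303 genes tested, the 38 MRPL and 20 MRPS genes, and 3 comparison lists. The curves of MRPL and MRPS lie below that of all genes at the low end and above it at 0 (65.8 and 60% with a lower mean, against 52%), and that of the cytosolic ribosomal proteins also lies above it at 0. With array medians in place of loess, the medians of MRPL and MRPS move to -0.81 and -0.82.

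How the ratio was normalised decided the level at which the members appeared. With each array centred on its median in place of loess, 57 of the 58 members had a lower mean in cold, with medians of -0.81 for the large and -0.82 for the small subunit. The median of all genes itself moved to -0.43 there, and 51 members lay below it. In the deposited values 50 members had a lower mean in cold, with medians of -0.36 and -0.38 against 0.01 for all genes. In neither did more than 1 member have a limma p under 0.01 (MRPS9 with array medians, where 4.42% of all genes had one, and none in the deposited table, where 4.16% had), and none had an adjusted p under 0.05. In the Cy3 channel alone 32 were lower and 26 higher, where 57.1% of all genes were lower, with medians of -0.01 for the large and -0.02 for the small subunit against -0.04 for all genes.

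The spots of the members were bright, and the change of a bright spot depended on the normalisation. Of the 58 members, 51 were brighter than the median gene. When all genes were divided into 10 classes of equal size by brightness, 43 members fell into the 3 brightest. With array medians, the median log2 change of all genes went from 0.19 in the dimmest class to -1.05 in the brightest, and was -0.79 in class 8 and -0.92 in class 9, which held 16 members each. After loess it lay between -0.05 and 0.02 in every class. The background-corrected Cy5 signal was higher in cold for all 58 members, by a median of 1.46 on the log2 scale, and by 0.99 over all genes, although the reference pool was the same RNA on every array. After quantile normalisation of Cy5 alone, 33 members were higher and 25 lower in cold, with a median of 0.03. The part of the reference channel in the values of the members was not tested.

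**Figure D5:**
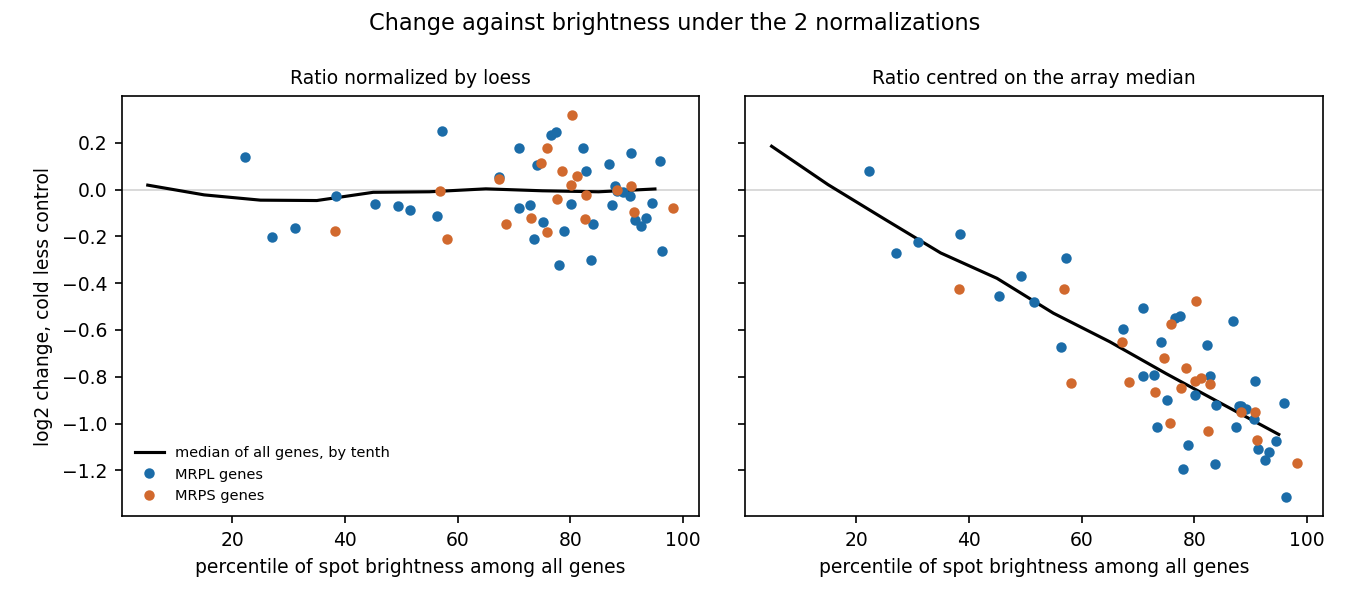
Log2 change, cold less control (y axis), against the percentile of spot brightness among all genes (x axis) for MRPL (blue) and MRPS (orange) genes, with the ratio normalised by loess on the left and centred on the array median on the right; the black line is the median of all genes in each of 10 classes of brightness. The members follow the black line in both panels, near 0 on the left and down to -1.05 at the bright end on the right.

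Markers of some blood cell types, but not of all, had shifted means in cold. Of the 8 T cell markers 7 had a lower mean in cold, their median log2 change was -0.50, and the mean of the list ranged from 0.10 to 0.39 in control and from -0.69 to 0.12 in cold. Monocyte markers (7 of 8 measured, 6 higher, median 0.66) ranged from 0.05 to 0.84 in control and from 0.91 to 1.61 in cold, without overlap. Platelet markers (5 of 7 measured, 5 higher, median 0.87) ranged from -0.05 to 1.25 and from 0.74 to 1.77, and neutrophil markers (4 of 8 measured, 4 higher, median 0.61) from 0.42 to 1.16 and from 0.99 to 1.72. Erythroid markers (4 of 7 measured, 4 lower, median -0.74) ranged from 0.18 to 1.12 and from -0.85 to -0.06. With array medians, where the median of all genes was -0.43, the monocyte and neutrophil medians were -0.36 and -0.18, while those of T cell, platelet and erythroid markers kept their direction. B cell and NK markers had medians of -0.06 and 0.02, which were -0.56 and -0.23 in Cy3 alone. The ranges of T cell, platelet and neutrophil markers overlapped between the groups. At an unadjusted p under 0.01, limma called 4 of 7 monocyte, 2 of 5 platelet and 1 of 8 T cell markers. It also called 1 of 4 neutrophil and 1 of 4 erythroid markers, and no B cell or NK marker, against 8.64% of all genes. None of the markers had an adjusted p under 0.05. The part of these shifts in the values of the mitochondrial ribosomal protein genes was not tested.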

How the data were processed

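For 10 arrays, 1 per ferret, the authors deposited spot intensities from Agilent Feature Extraction 10.7.3.1 (median signal and local background in Cy3 and Cy5, with flags for background, saturation and outliers), and processed log2 values, 1 for each target sequence. Those log2 values had array medians of 7.86 to 8.78 and followed the Cy3 level of the array (r = 0.929 to 0.999 across sequences, which are not independent), and how the reference entered them is not given in the sources used here, so they served as an alternative only. Background correction used normexp with an offset of 50 (limma 3.58.1; R 4.3.3), and the log2 ratio was normalised by loess (span 0.3, 4 iterations). Outlier spots were then left out. Spots were averaged per probe, and probes per gene. Probes with at least 0.5 of their spots well above background in Cy3 on at least 4 arrays were kept, 111051 in all. Target sequences were named through the RefSeq accession (21104 of 45328). Of the genes, 2 with a missing value were left out. Precision is limited by the number of arrays.

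Cold (n = 4) and control (n = 6) were compared with lmFit and eBayes over all 26303 features (9276 named genes and 17027 unnamed sequences), with Benjamini-Hochberg adjustment at 0.05 and the unadjusted 0.01 of the methods. Single genes also have a two-sided exact permutation test. The test was tested on simulated data before use. Arrays of a group correlated at 0.838 to 0.938, and each was counted as 1 animal. The members and all lists were chosen with earlier results of these data known. Named members are those past a p of 0.01, those without overlap, MRPS9, MRPS31 and the MRPS18 genes, those at the edge of the detection rule, and for each subunit the 5 largest changes each way and the 3 highest and lowest control ratios. Of the other mitochondrial lists, they are genes past 0.01 or without overlap, NSUN4, MTIF3 and LRPPRC. The slide (1 array each) could not be a block; the position on it was one. Alternatives covered signal, background, normalisation, channel, filter, probe summary, test, weights, blocks, subunit assignment and each left-out array. Promoter and protein sequences were not used here, nor were genome coordinates.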

Additional observations from a re-analysis of the deposited data

Results flagged for a closer look

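Of 70 groups of arrays examined, 4 held an array farther from its neighbours than Dixon's 95% critical value, about as many as the 1 in 20 that chance flags. Cold 2 was far above the other cold arrays for MRPL35, at a log2 ratio of 0.37, and for MRPL11, at -0.10. Control 5 was far below the other control arrays for MRPS7, at -0.70. Cold 4 was far below the other cold arrays for TFAM, at -0.38.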

How the results depend on the processing

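With 4 cold and 6 control arrays, the number of animals is 1 limit. Log2 changes under about 0.2 were mostly within the interval of a gene, and 11 members had a dim reference channel. The choice of normalisation is another limit. Relative to all genes, the median of the members went from -0.04 to -0.40 with array medians. At an unadjusted p of 0.01, limma called 2272 of all genes, and 1505 with processed intensities, 1163 with array medians, 1093 in the deposited table and 1275 to 3386 when single arrays were left out (1275 without cold 3, 3352 without control 5, 3386 without cold 2). With an adjusted p under 0.05 there were 0, but 741 in Cy3 alone, 115 with the filter on all 10 arrays, 5 with slide position as a block and 0 to 1272 with single arrays left out (633 without control 5, 12 without cold 1, 1272 without cold 2).

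The 1 call among the members became 0 with processed intensities, without background subtraction, in the deposited table and with the replicate block, and 0 to 2 when single arrays were left out: 0 without control 1, 3 or 6 or cold 1, 3 or 4, MRPL45 without control 2, and 2 without cold 2. Members with a lower mean in cold numbered 57 with array medians in place of 37 and 29 to 43 with single arrays left out. Relative to all genes, the large subunit median was -0.05, and -0.38 with array medians, -0.37 in the deposited table, 0.0259 in Cy3 alone and -0.08 to -0.02 with single arrays left out. That of the small subunit was -0.00254, and -0.40, -0.39, and -0.04 to 0.03 with single arrays left out. The large less small difference was -0.05, and 0.0155 with array medians, 0.00569 in Cy3 alone, 0.0233 in the deposited table, 0.00164 with array weights and -0.0677 to 0.0106 with single arrays left out. The translation and assembly list had 3 calls (9.68% against 8.64% of all genes), and 1 with array medians (3.23% against 4.42%). With single arrays left out it had 3 to 4, where 4.85 to 12.9% of all genes were called. The 4 calls without cold 2 were 12.9% of the list, against 12.9% of all genes. The causes of these differences were not tested.

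Replicate numbers 1 to 4 occur in both groups, but the correlations of same-numbered arrays (-0.30, 0.54, 0.10 and -0.19) do not pair the arrays. With the replicate number as a block, 0 members and 2459 of all genes had a p under 0.01, and the large less small difference was 0.00612. None of the 4 cold arrays correlated best with the control of its own number.

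Of the changes of single named genes, 311 of 320 values with 1 array left out kept their side of the threshold. Under other settings, 304 of 384 values kept it and were counted as unchanged. For genes that passed the threshold in neither fit, this also required a shift smaller than the spread between arrays. Another 62 values moved by more than that spread, 49 of them with array medians or in the deposited table. No value that passed the threshold changed sign. The planned description of promoters and proteins was not run.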
